A study of Mus musculus with 3 samples.

Results

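Genes of cadherin and desmosome adhesion were examined in epithelial cells of the mouse intestine. The 10 genes, Cdh1, Cdh17, Dsg2, Dsc2, Dsp, Jup, Pkp2, Pkp3, Ppl and Evpl, were chosen by symbol for their roles in cell adhesion, and all 10 were found among the 24346 genes listed for each library. RNA sequencing was performed on 1 library each of large intestinal, lower small intestinal and upper small intestinal epithelial cells. The cells were released from washed, opened mouse intestines by shaking in 5 mM EDTA, an agent that removes the calcium on which cadherins depend, at 37 °C for 20 min. The labels name no sort, treatment, age or genotype and do not say how many animals a library holds. The library of the upper small intestine alone carries a strain entry, which names a colorectal cancer mouse model, MC38. Should that entry hold, region is confounded with strain wherever that library is compared.

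Epithelial cells are held together at their sides by adherens junctions and desmosomes. In adherens junctions, E-cadherin (Cdh1) of neighbouring cells binds across the gap and is tied to actin through catenins. In desmosomes, desmogleins and desmocollins bind across the gap, plakoglobin (Jup) and plakophilins bind their tails, and desmoplakin (Dsp) ties the plaque to keratin filaments. Simple epithelia such as the gut lining are known to use desmoglein 2 and desmocollin 2, whereas stratified epithelia such as skin add other desmogleins and desmocollins. LI-cadherin (Cdh17) is a cadherin of the intestinal lining that has a short cytoplasmic tail and does not bind catenins.

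Levels are in FPKM, which counts fragments per kilobase of transcript relative to the size of the library. Where 3 values are listed, they belong to the large, the lower small and the upper small intestinal library, in that order. With 1 library per region no difference has a replicate check, and all of them describe these libraries. Low values were spaced such that a gene of 2 kb at 1 FPKM had about 16.4, 21.3 and 14.3 reads. Bracketed intervals are 95% Clopper-Pearson intervals from reads implied in this way, and they cover counting error alone. A gene was called higher or lower by size, without a test, where log2(FPKM + 1) differed by at least 1 between a pair of libraries (a 2-fold ratio of FPKM + 1), which understates differences of low genes. Of 7 simple epithelial markers, all were at 1 FPKM or more in every library, among them Epcam at 806, 879 and 666 FPKM.

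The levels of the 10 genes differed widely in each library. Cdh1 and Cdh17 were the most abundant, at 178 to 302 FPKM and 225 to 457 FPKM, and ranked among the top 526 of the genes at 1 FPKM or more in every library. Dsp, Dsg2, Jup and Dsc2 followed at 45.8 to 110 FPKM, then Pkp3 at 33.4 to 53.04 FPKM and Pkp2 at 17.9 to 25.6 FPKM. Evpl was at 7.22 to 14.5 FPKM and Ppl at 2.21 to 3.04 FPKM, the lowest level of the 10 in each library. Ppl stood on about 166, 158 and 119 reads, and Cdh1 on about 8250, 7999 and 4237. Most neighbours in this order differed by more than counting error. Jup and Dsc2 did not in the large (ratio 1.02, 0.942 to 1.11) and lower libraries (Dsc2 to Jup 1.03, 0.966 to 1.11). In the upper library Dsc2 and Dsp did not (1.005, 0.929 to 1.09), nor did Dsp and Jup (1.02, 0.939 to 1.10).

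**Figure D1:**
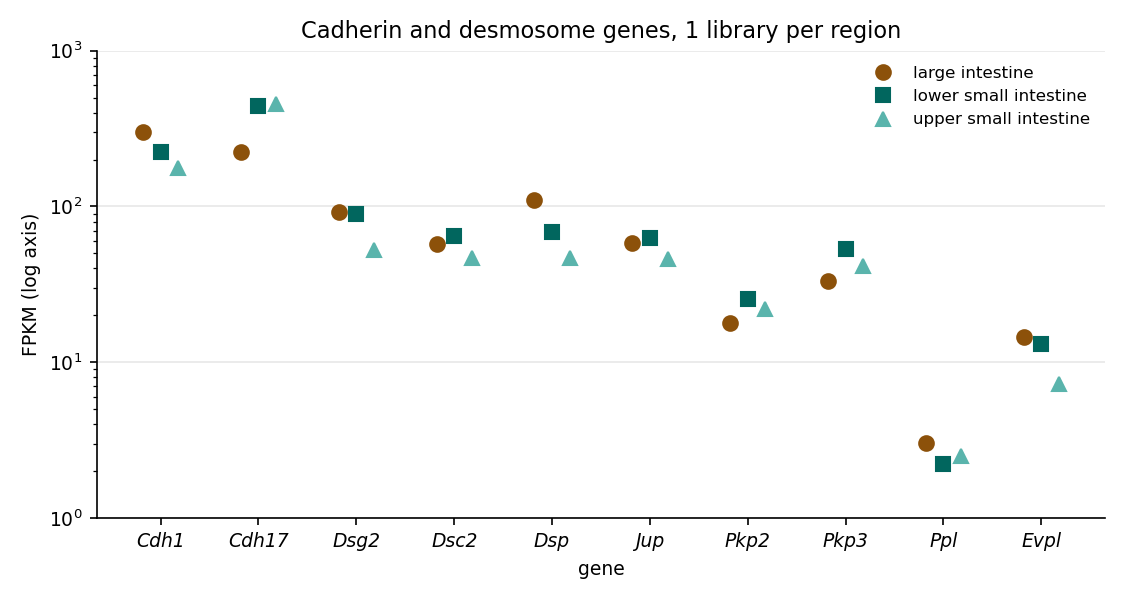
FPKM on a log axis of each gene in the library of each region (1 point per library, no error bars since there is 1 library per region). Cdh17 is lowest in the large intestine at 225 FPKM, whereas Dsp is highest there at 110 FPKM.

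The first comparison set the large against the lower small intestine. None of the 10 genes passed the size rule, where 20.2% of 12376 measured genes did (9.75% higher and 10.5% lower in the large intestine). Cdh17 came closest, at 225 FPKM against 442 FPKM (log2 difference -0.97), followed by Dsp at 110 against 68.2 FPKM (0.68) and Pkp3 at 33.4 against 53.04 FPKM (-0.65). The median difference of the 10 genes was -0.02, and 5 lay above and 5 below 0. The median absolute difference was 0.38 beside 0.41 for all measured genes. Beyond counting error 4 were higher in the large intestine, Cdh1, Dsp, Ppl and Evpl, and 4 were lower, Cdh17, Dsc2, Pkp2 and Pkp3. How many of all measured genes exceed counting error was not computed, so these counts have no background. For Dsg2 and Jup a difference was not detectable at this depth.

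Against the upper small intestine, Dsp was called higher in the large intestine and Cdh17 lower. These 2 of 10 compare with 22.9% of 12350 measured genes called in either direction (11.2% higher, 11.7% lower), so the share among the 10 genes is near the background. The median difference was 0.31 beside 0.000572 for all measured genes, with 7 genes above and 3 below 0. The median absolute difference was 0.55 beside 0.43. Evpl, at 14.5 against 7.22 FPKM, missed the rule with a log2 difference of 0.92, as did Dsg2 (0.80) and Cdh1 (0.76). The comparisons with the lower and with the upper library share the large intestinal library and are not independent.

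Within the small intestine no gene of the 10 passed the size rule, where 6.84% of 11941 measured genes did (3.92% higher and 2.92% lower in the upper library). The upper library was lower than the lower library in 8 of 10 genes, each beyond counting error, with Cdh17 and Ppl as the exceptions. The background for this direction comes in parts: of 12579 genes at 1 FPKM or more in some library, 25.4% had the order large, lower, upper. A further 8.62% had the order lower, large, upper and 20.6% the order lower, upper, large. A share of all genes beyond counting error was not computed. The median difference, upper minus lower, was -0.39 beside -0.03 for all measured genes, whose lower quartile was -0.22. The median absolute difference was 0.39 beside 0.21. Of the 7 simple epithelial markers none passed the size rule here. Epcam, Krt8, Krt18, Krt19, Krt20 and Cdx2 differed by -0.40, -0.67, -0.62, -0.60, -0.46 and -0.30, whereas Vil1 differed by 0.09. When the libraries were set to the same level of Epcam, Krt8, Krt18 and Krt19, the median difference of the 10 became 0.17, with 8 of 10 above 0. That scaling moves all genes alike, and the median of all measured genes became 0.49, so the 10 genes stayed below it. In bulk RNA, fewer cells of a type and less RNA per cell cannot be told apart.

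**Figure D2:**
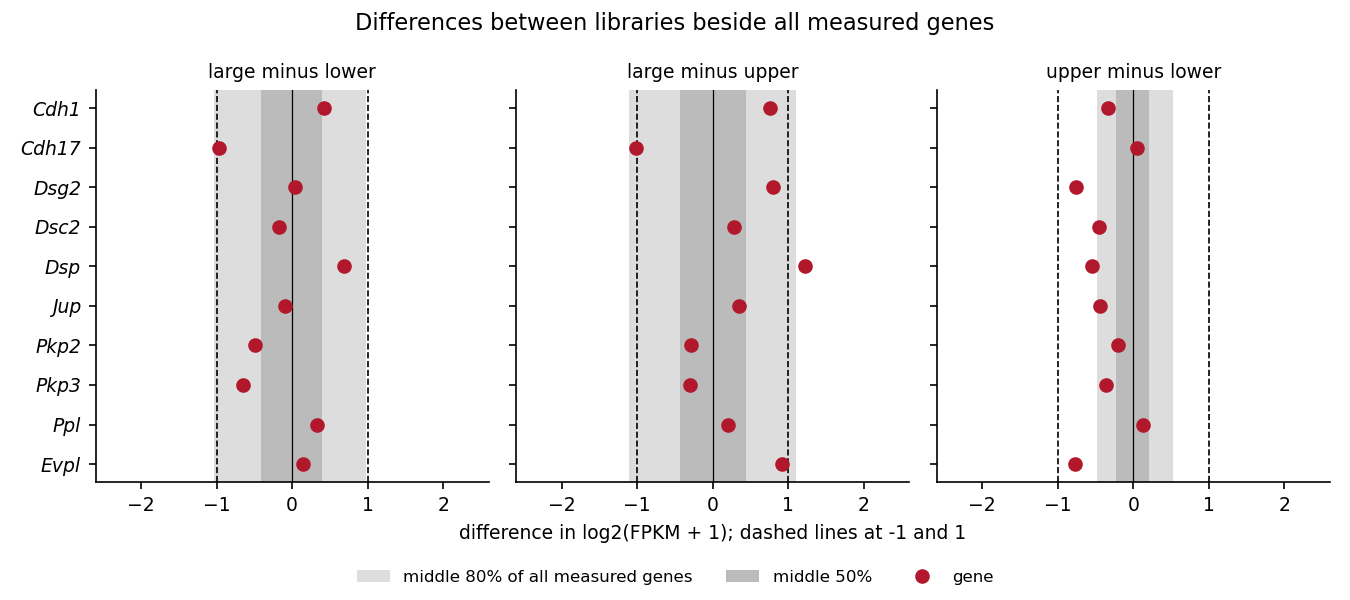
Difference in log2(FPKM + 1) of each gene (points) in 3 comparisons, with the middle 80% and 50% of all measured genes shaded and the size rule at -1 and 1 dashed. Dsp at 1.22 and Cdh17 at -1.02 pass the rule against the upper library, and no gene passes it in the other comparisons.

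As deposited, the classical cadherin and LI-cadherin differed in opposite directions between the large and the small intestinal libraries. With Epcam, Krt8, Krt18 and Krt19 set to the same level, the Cdh1 difference from the upper library was -0.015. On mm10, Cdh1 occupies chromosome 8 from 106603351 to 106670246 and Cdh17 chromosome 4 from 11758147 to 11817895, both on the plus strand. Cdh1 was at 302 FPKM in the large, 225 FPKM in the lower and 178 FPKM in the upper library. Its level was thus highest in the large intestine, 1.34 (1.30 to 1.38) times the lower and 1.70 (1.64 to 1.76) times the upper library. Cdh17 was at 225, 442 and 457 FPKM, so that the small intestinal libraries lay close together and above the large one. The large library was at 0.508 (0.494 to 0.523) times the lower and 0.493 (0.477 to 0.508) times the upper, while the upper to lower ratio was 1.03 (1.01 to 1.06).

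The ratio of these genes within a library does not depend on how libraries were scaled to each other. Cdh1 stood at 1.34 (1.30 to 1.39) times Cdh17 in the large intestine, 0.509 (0.495 to 0.523) in the lower and 0.389 (0.376 to 0.403) in the upper small intestine. E-cadherin transcripts thus outnumbered LI-cadherin transcripts in the large intestinal library only among these 3, and the ratio there was 2.64 and 3.45 times that of the lower and upper libraries. Of the summed FPKM of Cdh1, Cdh17, Dsg2 and Dsc2, Cdh17 held 33.3%, 53.9% and 62.2%, and Cdh1 held 44.7%, 27.4% and 24.2%. The sum itself was 676, 821 and 734 FPKM. Against Ctnnb1, which encodes the beta-catenin that binds the E-cadherin tail, Cdh1 was at a ratio of 1.25, 0.919 and 0.846.

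Of the desmosomal cadherins, Dsg2 (chromosome 18, 20558074 to 20604521, plus strand) was at 92.1, 89.4 and 52.5 FPKM. The large and lower libraries did not differ beyond counting error (1.03, 0.981 to 1.08), and the large library was at 1.75 (1.65 to 1.87) times the upper. Dsc2 (chromosome 18, 20030633 to 20059554, minus strand) was at 57.1, 64.4 and 46.8 FPKM, highest in the lower library. It varied less than Dsg2, with a highest to lowest ratio of 1.38 against 1.75. The ratio of Dsg2 to Dsc2 was 1.61 (1.504 to 1.73), 1.39 (1.31 to 1.47) and 1.12 (1.03 to 1.22), so desmoglein exceeded desmocollin in every library, by least in the upper one. Desmogleins and desmocollins of stratified epithelia were listed at or near 0. Dsg1a, Dsg1b, Dsg1c, Dsg3 and Dsc1 were listed at 0 in all 3 libraries, Dsc3 at 0, 0.016 and 0 FPKM, and Dsg4 at 0.033, 0.283 and 0.345 FPKM. A value of 0 can be a failed estimate.

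Of the armadillo proteins of the plaque, plakoglobin had the order of Dsc2 over the libraries, and both plakophilins had their lowest level in the large intestine. Jup (chromosome 11, 100368958 to 100397763, minus strand), whose product plakoglobin serves desmosomes and adherens junctions alike, was at 58.5, 62.3 and 45.8 FPKM. The large library was at 0.939 (0.869 to 1.01) times the lower and 1.28 (1.16 to 1.40) times the upper. Pkp2 (chromosome 16, 16213318 to 16272712, plus strand), the plakophilin of simple epithelia and heart, had its lowest value in the large library, with 17.9, 25.6 and 22.1 FPKM. Pkp3 (chromosome 7, 141078218 to 141090510, plus strand), which binds a wide range of desmosomal proteins, followed the same order at 33.4, 53.04 and 41.2 FPKM. For both genes the large library lay below each small intestinal library beyond counting error, with large to lower ratios of 0.70 (0.622 to 0.787) and 0.629 (0.577 to 0.685), although with libraries rescaled to the same sum the differences from the upper library turned to 0.10. The balance between them moved little: Pkp2 stood at 0.536 (0.476 to 0.603), 0.482 (0.443 to 0.524) and 0.535 (0.477 to 0.599) times Pkp3.

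Pkp1 and Pkp4 complete the family. Pkp1, which is best known from stratified epithelia, was at 12.2, 14.1 and 9.24 FPKM and made up 19.2%, 15.2% and 12.7% of the summed FPKM of Pkp1, Pkp2 and Pkp3. Pkp3 held over 50% of that sum in each library (52.6%, 57.2% and 56.8%). Of 12 markers of stratified squamous epithelium, Krt5, Krt6a, Trp63 and Krtdap were listed at 0 in all libraries, and the 12 summed to 4.86, 3.52 and 5.34 FPKM. Pkp4, a relative that is also found outside desmosomes, had 16.8, 32.1 and 32.7 FPKM, lowest in the large library without reaching the size rule (-0.90 and -0.92). Perp, a membrane protein of desmosomes, was at 138, 111 and 79.3 FPKM, an order that Cdh1, Dsg2, Dsp and Evpl share.

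**Figure D3:**
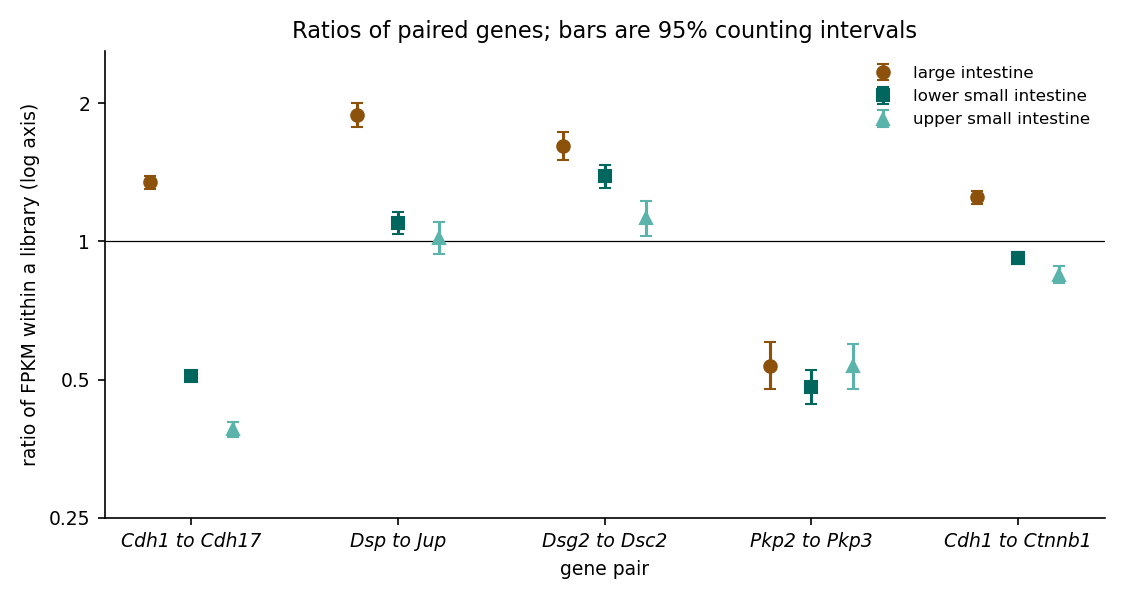
Ratio of FPKM of paired genes within each library on a log axis, with 95% counting intervals as bars. Cdh1 to Cdh17 lies at 1.34 in the large intestine and at 0.509 and 0.389 in the small intestinal libraries, Dsp to Jup at 1.88 against 1.10 and 1.02, and Pkp2 to Pkp3 between 0.482 and 0.536.

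Desmoplakin, the plakin that anchors keratin filaments at the desmosome, varied most of the 10 genes. Dsp (chromosome 13, 38151294 to 38198577, plus strand) had 110 FPKM in the large library, 68.2 FPKM in the lower and 46.6 FPKM in the upper one. The large library was at 1.61 (1.56 to 1.67) times the lower and 2.37 (2.26 to 2.47) times the upper, the latter past the size rule. Of 12579 genes at 1 FPKM or more in some library, 79.2% had a smaller range over the 3 libraries. Relative to Jup, its partner in the plaque, Dsp stood at 1.88 (1.77 to 2.01) in the large, 1.10 (1.04 to 1.16) in the lower and 1.02 (0.939 to 1.10) in the upper library. Dsp and Jup transcripts were thus near parity in the upper library, while Dsp exceeded Jup slightly in the lower and most in the large library. The keratins that attach to desmoplakin were called higher in the large than in the upper library for Krt18 (316, 232 and 151 FPKM) and Krt19 (2437, 1819 and 1200 FPKM), and Krt8 (2845, 2676 and 1682 FPKM) did not reach the rule at 0.76. Krt20, a keratin of differentiated gut epithelium, had the opposite direction at 361, 968 and 702 FPKM, with differences of -1.42 (called lower) against the lower and -0.96 against the upper library. Vil1, which encodes a microvillus protein, was called lower in the large library in both comparisons, at 278, 913 and 974 FPKM.

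Promoter sequences were matched for 2 of the 10 genes, Dsp and Jup. The 250 bases before the start of each are shown, 5′ to 3′ on the gene's strand, from RefSeq (GRCm38.p6). They span chr13:38151044-38151293 (plus strand) for Dsp and chr11:100397791-100398040 (minus strand) for Jup, and capitals mark the GC box, GGGCGG or its reverse complement.
Dsp: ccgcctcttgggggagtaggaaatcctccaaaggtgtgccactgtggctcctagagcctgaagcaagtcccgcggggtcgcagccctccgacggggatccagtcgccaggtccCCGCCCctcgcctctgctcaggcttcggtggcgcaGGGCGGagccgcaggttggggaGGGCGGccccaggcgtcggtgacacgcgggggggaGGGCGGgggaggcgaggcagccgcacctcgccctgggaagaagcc
Jup: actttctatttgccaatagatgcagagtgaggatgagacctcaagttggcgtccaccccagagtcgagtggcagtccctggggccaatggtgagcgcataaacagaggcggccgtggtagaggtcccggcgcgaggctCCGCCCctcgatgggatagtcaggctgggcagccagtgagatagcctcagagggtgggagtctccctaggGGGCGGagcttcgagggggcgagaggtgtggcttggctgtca
The Dsp sequence held 4 GC boxes, which begin at positions -137, -102, -80 and -45 from the RefSeq gene start, and the Jup sequence held 2, at -112 and -42. The Jup window does not abut the start of Jup given above, 100397763, so its positions refer to another start. Of 32851 promoters of the same length in the table, 32.7% held at least 1. GC content was 72.4% for Dsp and 62.0% for Jup beside a median of 52.4% over all promoters. On both strands neither sequence held a Snail and Zeb E-box (CACCTG, in 17.2% of promoters), any E-box (CANNTG, 66.2%, which includes the former), a Cdx motif (TTTATNG, 9.81%), an Hnf1 motif (GTTAAT, 6.43%), an Hnf4 motif (AAAGTCC, 3.58%), a Grainyhead-like motif (ACCGGTT, 0.831%) or a TATA box (TATAAA, 12.4%). These letters are a description of the windows and not of factor binding. The other genes of the 10 are not shown.

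Envoplakin and periplakin, plakins best known from the cornified envelope of stratified epithelia, were far lower than desmoplakin. Evpl (chromosome 11, 116220559 to 116238077, minus strand) was at 14.5, 12.99 and 7.22 FPKM. The large and lower libraries were close (1.12, 1.02 to 1.23), and the large library was at 2.01 (1.77 to 2.29) times the upper. Ppl (chromosome 16, 5086291 to 5132421, minus strand) was at 3.04, 2.21 and 2.50 FPKM, with a large to upper ratio of 1.21 (0.957 to 1.55) that did not exceed counting error. Against the lower library the ratio was 1.37 (1.09 to 1.71). Ppl stood at 0.209, 0.17 and 0.347 times Evpl. Of the other plakins, Dst passed the rule as higher in the large intestine against either small intestinal library, with 20.7, 7.78 and 8.53 FPKM. Dst encodes dystonin, which includes a hemidesmosomal form. Plec (45.4, 41.7 and 35.9 FPKM), Macf1 (7.61, 5.17 and 4.83 FPKM) and Eppk1 (9.41, 8.59 and 8.04 FPKM) did not reach the rule. Of the summed FPKM of these 7 plakins, Dsp held 52.2%, 46.5% and 41.0%.

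Levels of the 3 main catenin genes were close in all libraries, apart from small differences in the upper one. Of 13 measured genes of this list, 1 was called higher and 1 lower in the large intestine in each comparison with small intestine, where 20.2% and 22.9% of all measured genes were called. The median differences were -0.07 and 0.12 beside -4.5e-05 and 0.000572 for all measured genes. Ctnna1, the alpha-catenin that links to actin, was at 157, 160 and 155 FPKM, Ctnnb1 at 243, 245 and 210 FPKM, and Ctnnd1, the p120 catenin that holds cadherins at the surface, at 120, 133 and 109 FPKM. The genes called were nectins, listed under older symbols. Pvrl4 was the one called higher, with 2.10, 0.496 and 0.234 FPKM, and Pvrl1 the one called lower, with 2.40, 6.15 and 6.49 FPKM. Pvrl2 (54.5, 82.4 and 82.2 FPKM) and Pvrl3 (37.6, 56.3 and 58.1 FPKM) did not reach the rule. The afadin gene Mllt4, whose product binds nectins to actin, was at 43.1, 28.5 and 23.3 FPKM, with differences of 0.58 and 0.86. Vcl was at 20.98, 19.1 and 14.6 FPKM, Lima1 at 129, 97.9 and 108 FPKM, Plekha7 at 22.4, 23.5 and 22.5 FPKM, Camsap3 at 23.9, 30.5 and 24.5 FPKM, and Arvcf at 1.34, 1.83 and 1.15 FPKM.

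**Figure D4:**
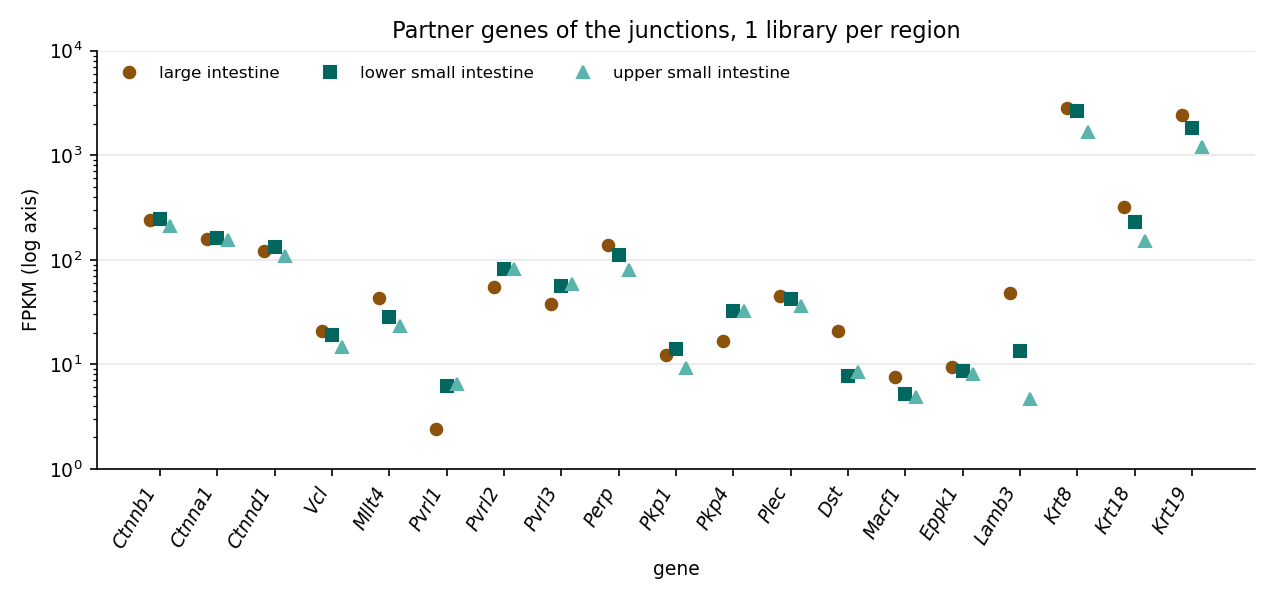
FPKM on a log axis of partner genes in the library of each region (1 point per library). The catenin gene Ctnna1 lies at 155 to 160 FPKM in all 3, whereas the laminin gene Lamb3 lies at 48.4, 13.3 and 4.65 FPKM.

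Most other cadherins were near 0. Of 16 listed, 12 stayed under 1 FPKM in every library, and Cdh2, the N-cadherin of neural and mesenchymal cells, was listed at 0 throughout. The protocadherin gene Pcdh1 was at 31.5, 32.3 and 28.9 FPKM. Cdhr2 and Cdhr5, whose products link the tips of microvilli, had their lowest level in the large library, with 155, 303 and 374 FPKM and 317, 523 and 574 FPKM, and Cdhr2 was called lower against the upper library. Their order over the libraries was that of Cdh17. Cdhr1 was called higher in the large library, with 2.32, 0.082 and 0 FPKM.

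Genes of basal and lateral adhesion were given as a frame for the junction genes. Of 7 measured genes of the hemidesmosome and basal adhesion, Lamb3, a laminin chain, was called higher in the large intestine than in each small intestinal library and none was called lower. For this list and the lateral one, the background against the lower library was 9.75% of all measured genes higher and 10.5% lower. Against the upper library it was 11.2% and 11.7%. Lamb3 was at 48.4, 13.3 and 4.65 FPKM. Lama3, another laminin chain, was at 2.73, 3.42 and 1.36 FPKM, and the integrin genes Itga3 and Itgb4 at 32.8, 38.3 and 44.9 FPKM and 52.2, 44.1 and 39.6 FPKM. Among 7 measured lateral adhesion genes, Ceacam1, a homophilic adhesion protein, passed the rule as higher in the large library against either small intestinal library, at 772, 357 and 120 FPKM. Lsr, a receptor of tricellular junctions, was called lower against the lower library at 58.2, 139 and 109 FPKM. Cxadr was at 70.4, 50.1 and 39.7 FPKM and Ceacam20 at 39.7, 56.1 and 31.1 FPKM.

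Of 12 measured transcription factors known to act on cadherin or epithelial junction genes, 2 passed the size rule as higher in the large library against the lower one and 3 against the upper one, where 9.75% and 11.2% of all measured genes were called higher, and none as lower. Grhl2, a Grainyhead-like factor that acts on Cdh1, was at 16.7, 7.11 and 5.43 FPKM. Klf4 was at 271, 115 and 88.3 FPKM, and Cdx1 at 170, 100.3 and 62.7 FPKM, called against the upper library alone. Cdx2, a factor known to act on Cdh17 and named here after its values were seen, was at 82.5, 100.2 and 81.4 FPKM. Repressors of Cdh1 were close to 0: Snai1, Snai2, Zeb1, Zeb2 and Twist1 were each under 1 FPKM in every library, with Zeb1 highest at 0.3 FPKM in the lower library. Tcf3, which can also repress Cdh1, was at 12.7, 21.6 and 25.1 FPKM. Of 5 genes for cleavage or turnover of E-cadherin none was called in any comparison, too few genes to set apart from the background. Of all measured genes 20.2% were called for large against lower, 22.9% for large against upper and 6.84% for upper against lower. Adam10, the main sheddase, was at 29.1, 41.3 and 35.1 FPKM. Numb was at 20.9, 32.7 and 38.6 FPKM, Adam17 at 8.14, 9.96 and 9.55 FPKM and Cbll1 at 4.91, 5.85 and 4.76 FPKM.

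Transcripts of other cells differed between the libraries. The 7 T cell markers summed to 5.63, 71.3 and 79.3 FPKM, and Cd3e was at 0.98, 13.8 and 14.8 FPKM. The 9 B and myeloid cell markers summed to 3.55, 38.2 and 20.7 FPKM. Fibroblast and muscle markers summed to 10.1, 7.97 and 4.80 FPKM over 10 genes, of which Tagln alone held 7.83, 2.56 and 1.64 FPKM. Dcn (1.93, 3.29 and 2.02 FPKM) and Col3a1 (0.183, 0.973 and 0.679 FPKM) of that list were instead lowest in the large library. Endothelial markers summed to 1.74, 1.52 and 1.35 FPKM over 6 genes, with the endothelial cadherin gene Cdh5 listed at 0, 0 and 0.033 FPKM. Of 7 pancreatic acinar genes 6 reached 1 FPKM in the upper library, with Ctrb1 at 0, 0 and 15.5 FPKM. Cela1 of that list was instead highest in the large library, at 227, 5.71 and 12.9 FPKM. Of 6 gastric genes none reached 1 FPKM. The 6 crypt and dividing cell genes summed to 83.2, 219.6 and 187 FPKM. T cell and dividing cell markers had the direction of Cdh17, Pkp2 and Pkp3, lower in the large intestine, and their part in those results was not tested.

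How the libraries were scaled set much of the direction for individual genes. Values rescaled to the same sum moved the median difference of all measured genes to 0.28 against the lower and 0.37 against the upper library, and setting Epcam, Krt8, Krt18 and Krt19 to the same level moved it to -0.19 and -0.70. Among called genes, 48.2% and 49.0% were higher in the large intestine as deposited, 64.0% and 69.0% with the same sum, and 37.5% and 16.3% with the same level of those 4 genes. Of the epithelial markers not among those 4 genes, Krt20 differed by -1.42 and -0.96 and Vil1 by -1.71 and -1.81 as deposited. Cdx2 differed by -0.28 and 0.02, and a scaling to these markers was not computed. Dsp was above 0 and Cdh17 below 0 against both small intestinal libraries under each of the 4 scalings. A rescaling moves all genes nearly alike, here by less than the deposited differences of Dsp and Cdh17. Their kept signs are therefore no separate support. For Dsp the differences were 0.48 to 0.99 against the lower and 0.46 to 1.63 against the upper library. For Cdh17 they were -1.18 to -0.66 and -1.80 to -0.61. Cdh1 was above 0 against the lower library under each scaling, and against the upper library it was at 1.17 with the same sum and at -0.015 with the level of the 4 epithelial genes. With that same scaling Dsc2, Jup and Ppl also turned, to -0.48, -0.42 and -0.37 against the upper library, and Dsg2 and Evpl to -0.16 and -0.04 against the lower. With the same sum Dsc2 and Jup turned to 0.13 and 0.21 against the lower library.

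**Figure D5:**
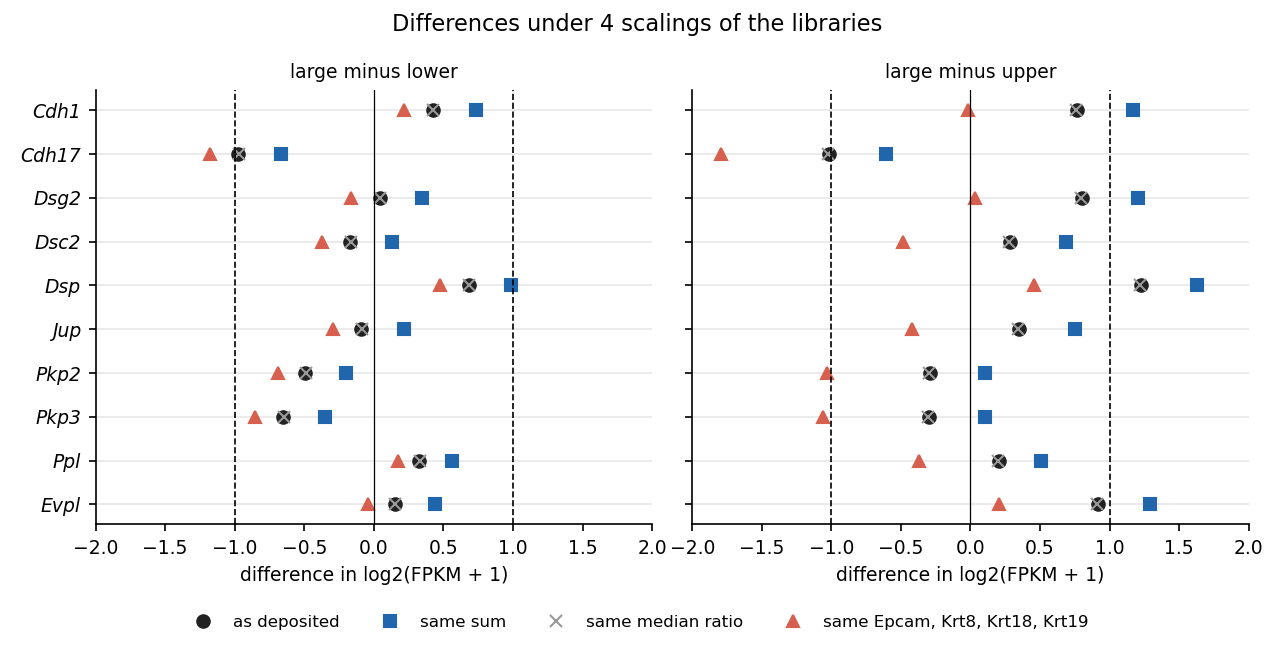
Difference in log2(FPKM + 1), large minus lower (left) and large minus upper (right), of each gene under 4 scalings of the libraries, with the size rule dashed. A rescaling moves all genes nearly in parallel, by less than the deposited differences of Dsp and Cdh17. Dsp (0.46 to 1.63 against the upper library) and Cdh17 (-1.80 to -0.61) therefore keep their signs.

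The genes whose pattern over the 3 libraries lay nearest to Dsp and Cdh17, the members with a range of at least 1, were found among 6552 genes at a mean of 10 FPKM or more. Likeness was the distance between mean-centred log2(FPKM + 1) values, over 3 libraries only. Nearest to Dsp were Sat1 (258, 162 and 111 FPKM, distance 0.016), Ccdc23 (19.8, 11.5 and 7.71 FPKM, 0.034) and Foxa3 (16.9, 10.6 and 6.78 FPKM, 0.036). Nearest to Cdh17 were Pmaip1 (34.5, 68.9 and 70.0 FPKM, 0.018), Snd1 (30.1, 60.1 and 61.0 FPKM, 0.019) and Pcna (61.1, 123 and 128 FPKM, 0.022). Within a distance of 0.1 lay 19 of the 6552 genes for Dsp and 43 for Cdh17. The same count for other genes was not computed.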

How the data were processed

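Gene values of 3 libraries, 1 per region, were used as deposited. The authors deposited 1 value per gene, taken here as FPKM. That unit was inferred: per the file headers no unit is stated, and per the submitters' processing notes Cufflinks 2.2.1 was used, beside SAMtools 0.1.19, Bowtie2 2.2.3 and TopHat2 2.0.13 on mm10. For annotation, strand setting and pooling no source used here gives an answer. Median ratios to the geometric mean library were 1.004, 1.007 and 0.999, against sums of 521651, 646262 and 693218, so their scale may have been set between libraries.

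Coordinates and lengths came from GENCODE M21 (GRCm38), in which 23310 of 24346 names matched. Exons of Dsg2 overlap 330 bases of an antisense gene, Gm16090, and those of Dsp 499 bases of Gm10129, neither listed. Without strand, such reads cannot be told apart.

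Implied reads were FPKM times transcript length less 200 nt, divided by a step of 0.11, 0.0845 and 0.126. The length was that of the shortest protein-coding transcript of at least 1500 nt. Of low values in single-transcript genes, 78.0%, 80.3% and 81.7% came within 0.15 of whole reads. The steps were fitted to these same values. Reads were not marked by molecular identifiers, so intervals treat copies of 1 molecule as separate.

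Differences used a pseudocount of 1 FPKM and genes that reached 1 FPKM in either library compared. With 1 library per region neither p-values nor errors between samples were computed. The 10 genes and all lists were chosen with earlier results of these data known. Named were the 10 genes, every measured gene of the other desmosomal, adherens junction and other plakin lists, and up to 4 of largest difference from each other pathway list. Genes of the cell type marker lists fall outside that rule, and those given by name were chosen after their values were seen. Some genes of these lists are not reported here. Python 3.11.15, pandas 2.3.3 and scipy 1.17.1 were used, and the rules were tested on simulated data.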

Additional observations from a re-analysis of the deposited data

How the results depend on the processing

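Another pseudocount (0.1 or 5), no filter, a filter of 5 FPKM and rescaling to the same median ratio left the counts of genes past the size rule as they were in all 3 comparisons. Rescaled to the same sum, 4 genes were higher in the large than in the upper library (Cdh1, Dsg2, Dsp and Evpl) and 0 lower. Scaled to Epcam, Krt8, Krt18 and Krt19, 0 were higher and 3 lower (Cdh17, Pkp2 and Pkp3), and against the lower library 1 was lower (Cdh17). Krt20 and Vil1, epithelial markers left out of that scaling, were themselves lower in the large library as deposited. At a 1.5-fold threshold the comparison of large with lower gave 1 gene higher and 2 lower, that of large with upper 4 higher and 1 lower (Cdh17), and that of upper with lower 2 lower. At a 3-fold threshold, large against upper gave 0 higher and 0 lower. The differences of Dsp and Cdh17 called as deposited kept their signs under the 3 rescalings. Those rescalings shift all genes by less than the size rule, so a called gene keeps its sign in any case. Cdh1, called with the same sum, and Pkp2 and Pkp3, called with the epithelial scaling, have the other sign under the other of these 2 scalings (-0.015, 0.10 and 0.10). Of genes outside the 10, only Pkp1, Pkp4, Perp, Krt8, Krt18, Krt19 and Epcam were followed through the scalings. With the epithelial scaling Pkp4 passed the rule as lower in the large library, at -1.09 and -1.67 against the lower and upper libraries. Perp passed it against the upper library with the same sum, at 1.20, as did Krt8 at 1.17. Krt18 and Krt19, which help set the epithelial scaling, fell under the rule there, at 0.29 and 0.24 against the upper library. Counting intervals without the length offset or with the longest transcript, both chosen after seeing the data, kept all 30 ratios on the same side of counting error. No paired analysis was possible because each region has 1 library. Differences between animals were not measured, and Ppl, on 119 to 166 reads, is the least precise of the 10.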

Other observations

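Cela1, a gene of the pancreatic acinar marker list, was at 227 FPKM in the large intestine, 5.71 FPKM in the lower and 12.9 FPKM in the upper small intestine. The other 6 genes of that list were listed at 0 in the large intestine, and Cela2a, Pnlip, Prss2 and Cpa1 were at 13.4, 8.63, 6.50 and 4.85 FPKM in the upper library, where Amy2a5 was listed at 0. Tagln, a smooth muscle marker, was at 7.83, 2.56 and 1.64 FPKM, while the smooth muscle gene Myh11 was at 0.017, 0.026 and 0 FPKM. The order of levels from large over lower to upper, seen in 4 of the 10 adhesion genes (Cdh1, Dsg2, Dsp and Evpl), was held by 25.4% of 12579 genes at 1 FPKM or more in some library. The upper library was the lowest for 6 of the 10 genes and for 33.1% of those 12579. These values are given as a description, with no explanation.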
